A study of Homo sapiens with 4 samples.

Results

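The nuclear genes for mitochondrial ribosomal proteins were examined for binding of CTCF, the zinc finger protein of insulators and chromatin loop anchors. They were taken as all protein-coding genes on chromosomes 1 to 22 whose symbol is MRPL or MRPS followed by a number. The rule gave 77 genes of 19126, of which 49 carry the large subunit symbol MRPL and 28 the small subunit symbol MRPS. The rule itself uses no binding value. The members lie on 21 chromosomes, and each chromosome carries at most 8 of them.

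CTCF was mapped by ChIP-seq, the sequencing of DNA pulled down with an antibody, in the established human line MDA-MB-435, which is labelled as melanoma. The 4 samples were 2 of asynchronous cells, taken with a rabbit anti-CTCF antibody, and 2 of cells arrested in mitosis with nocodazole, taken with one that recognises the phosphorylated T431 of CTCF. Only the peak list of asynchronous replicate 1, from untreated cells at mixed stages of the cycle, was used here. The other 3 samples were not analysed here, so that no value below has a replicate check, no test across samples was possible and mitotic cells were not compared. Expression was not measured, and the identity of the line was not checked.

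Mitochondrial ribosomes translate the few messenger RNAs of the mitochondrial genome, which encode core subunits of the respiratory chain. Their RNAs are made inside the organelle, whereas all of their proteins are encoded in the nucleus, made in the cytosol and imported. Some of these proteins descend from those of bacterial ribosomes, and others are found only in mitochondria. The small subunit decodes the messenger RNA, and the large subunit joins the amino acids and passes the chain to the inner membrane.

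The library held 19210460 tags and 42462 peaks of equal width, 41313 of them on the autosomes. Peak strength is given as normalised tags, the tags in a peak scaled to a library of 10000000. The median peak held 20 normalised tags. Values in brackets after tags are exact Poisson 95% intervals, those after shares of genes are Clopper-Pearson 95% intervals, and both cover counting error only. Genes of 1 library are not replicates, and the intervals on shares describe the size of the lists. Distances run from the peak centre to the nearer annotated end of the gene in hg38, and a gene counted as having a peak when a centre lay at or within the window.

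Of the 77 mitochondrial ribosomal protein genes, 33 had at least 1 CTCF peak no more than 1 kb from an end (42.9%, 31.6 to 54.7), where 28.9% of all autosomal protein-coding genes had one (5521 of 19126). Large and small subunit genes had the same share, 21 of 49 (42.9%, 28.8 to 57.8) and 12 of 28 (42.9%, 24.5 to 62.8). The difference between the subunits was 0 percentage points, with a Newcombe 95% interval of -22.2 to 21.4. Differences within those bounds were compatible with these counts. Within 5 kb, 53 of the 77 genes had a peak (68.8%, 57.3 to 78.9), against 54.0% of all genes. There the large subunit had 36 of 49 (73.5%, 58.9 to 85.1) and the small subunit 17 of 28 (60.7%, 40.6 to 78.5), a difference of 12.8 points (-8.12 to 33.8) whose interval included 0. Within 250 bp the members had 12 of 77 (15.6%, 8.32 to 25.6), close to the 13.8% of all genes. The median distance from a member to its nearest peak was 1.77 kb, against 4.07 kb over all genes.

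**Figure D1:**
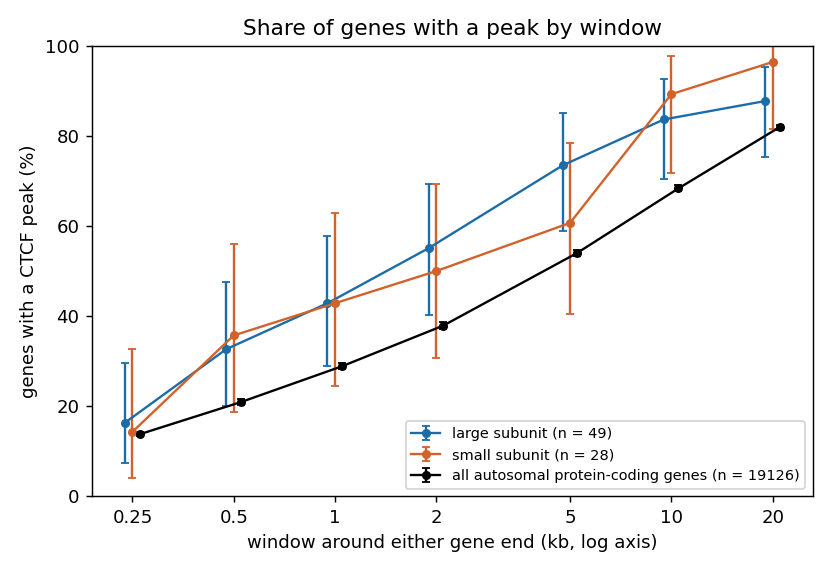
Share of genes with a CTCF peak (vertical axis, percent) by the window around either gene end (horizontal axis, kb, log scale) for large subunit genes, small subunit genes and all autosomal protein-coding genes. Bars are Clopper-Pearson 95% intervals, and the 2 subunits stand at the same 42.9% at 1 kb, above the 28.9% of all genes.

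Counted by gene, the excess over all genes lay mostly in members with only weak peaks. When peaks had to reach the median of the caller's score over the whole list (39), 15 of 77 members kept one within 1 kb (19.5%, 11.3 to 30.1), close to the 15.6% of all genes. The remaining 18 members (23.4%) had only peaks under the median score, where 13.2% of all genes did. Counted by peak, 17 of 34 member peaks (50.0%) reached the median score, against 53.8% of all autosomal peaks within 1 kb of a gene end. Requiring at least 8-fold over the surrounding 10 kb gave 24.7% of members and 18.9% of all genes. Under each of these stricter rules the interval of the members' share included the share of all genes.

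Among the large subunit genes with a peak within 1 kb, 11 had one at or above the median score and 10 had not. In the small subunit the numbers were 4 and 8. Counted over all genes of each subunit, these strong peaks stood at 22.4% of large and 14.3% of small subunit genes. The difference was 8.16 points (-11.5 to 24.1), and its interval held differences of either sign.

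In 8 members a peak centre fell within the 250 bases before an annotated start, where its position can be read against the promoter sequence. Sequence is shown for 4 of them, picked after the matches were seen: 3 with a match to the CTCF motif and 1 without. Of the other 4, MRPL55 had a match in its stretch and MRPL34, MRPL39 and MRPS30 had none. The core of the known CTCF motif was searched on both strands in 3 forms. The longer form has 12 letters, 7 of them fixed, the stricter form fixes 1 letter more, and the shorter form drops the first letter of the longer one. The shorter form was added after the sequences had been seen, and it matches wherever the longer one does. Each line runs 5′ to 3′ on the gene's strand over 100 bases of RefSeq sequence (GRCh38.p14). Capitals mark the longer form where it is present, and otherwise the shorter one. The lines are MRPS2 at chr9:135500567-135500666 (plus strand), MRPL17 at chr11:6683491-6683590 (minus strand), MRPL58 at chr17:75012523-75012622 (plus strand) and MRPS33 at chr7:141015015-141015114 (minus strand).
MRPS2: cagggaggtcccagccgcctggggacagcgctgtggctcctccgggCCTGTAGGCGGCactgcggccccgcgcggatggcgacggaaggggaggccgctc
MRPL17: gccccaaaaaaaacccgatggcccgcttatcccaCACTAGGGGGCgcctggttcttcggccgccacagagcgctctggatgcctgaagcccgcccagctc
MRPL58: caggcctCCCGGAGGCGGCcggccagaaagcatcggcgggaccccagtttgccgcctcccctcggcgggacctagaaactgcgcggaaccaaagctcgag
MRPS33: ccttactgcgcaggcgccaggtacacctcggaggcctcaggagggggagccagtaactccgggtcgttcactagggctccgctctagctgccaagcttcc

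In MRPS2 the match began 69 bases before the start site and its middle lay 2 bp from the centre of a peak of 105.9 normalised tags. MRPS2 also held a match to the shorter form alone, on the opposite strand and 32 bp from the peak centre, which is left in lower case. In MRPL17 the shorter form lay 9 bp from the centre of a peak of 73.1 normalised tags. The MRPL58 match lay 37 bp from the centre of a weaker peak of 17.4 normalised tags. MRPS33 had a peak of 45.3 normalised tags centred 112 bases before its start, and neither form was found in the stretch printed. A match is a description of letters and not evidence of a bound site. The longer form was present in a promoter window of 10 of the 69 members in the promoter table (14.5%) and of 16.2% of the 15101 autosomal protein-coding genes in it. Among the 26 members with a peak within 1 kb of a tabulated start it was present in 4 (15.4%), against 25.7% of the 4124 genes with such a peak. The stricter form was present in 5 of 69 members (7.25%) and 7.36% of all genes, and with a peak at a start in 4 of 26 members (15.4%) and 13.6% of all such genes. The shorter form was present in 23 of 69 members (33.3%) and 37.4% of all genes, and with a peak at a start in 11 of 26 members (42.3%) and 50.6% of all such genes. The order of members and all genes with a peak thus changed with the form searched. Over all 35116 promoter windows of 300 bp, RNA genes included, the longer, stricter and shorter forms were present in 10.6%, 4.64% and 26.7%. The 8 members not in that table were MRPL2, MRPL10, MRPL13, MRPL15, MRPL21, MRPL23, MRPL35 and MRPS28.

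Among small subunit genes, MRPS12 had the strongest peak of any member within 1 kb, 138.2 normalised tags (122 to 156), 464 bp before its start. MRPS12 encodes the protein uS12m of the decoding centre. The same peak lay 283 bp from an end of SARS2, the mitochondrial seryl-tRNA synthetase gene, whose end is 181 bp from that of MRPS12. It stood 42.6-fold over the surrounding 10 kb, and a second, weak peak of 9.37 normalised tags lay 69 bp from an end of SARS2.

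MRPS2 was 1 of 2 members with a pair of peaks within 1 kb. Its stronger peak, 105.9 normalised tags (91.6 to 121), lay 652 bp inside the gene by its outermost annotated start, at the inner start site whose sequence is printed above. The other, 45.0 normalised tags (35.8 to 55.3), lay 168 bp beyond the far end. Both ends of this gene of 4.71 kb were therefore marked by peaks above the median of the list, and their intervals did not overlap.

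MRPS34, a protein found only in mitochondrial ribosomes, had 80.2 normalised tags (68.0 to 93.9) 376 bp before its start, in a gene of 1.24 kb that begins 324 bp from an end of EME2. MRPS33 had 45.3 (36.3 to 55.9). These were the 4 small subunit genes with a peak at or above the median score within 1 kb.

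The other 8 small subunit genes had peaks of 7.55 to 15.6 normalised tags. MRPS18B, 1 of 3 human paralogues of a bacterial protein, had 15.6 (10.5 to 22.3) beyond its far end and 124 bp from an end of ATAT1. MRPS30, with 11.7, carries a small subunit symbol although its uniform name in the gene table is mL65, a large subunit protein. MRPS28 had 10.4, MRPS18C 9.63, MRPS26 8.33, MRPS7 8.07 and MRPS27 7.55. Each held at most 30 tags of the library, and their intervals all overlapped.

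MRPS11 and MRPL46, a small and a large subunit gene that face away from each other with 320 bp between their starts, shared 1 peak of 12.5 normalised tags (8 to 18.6). It lay 680 bp inside MRPS11 and exactly 1000 bp before the start of MRPL46, so that MRPL46 entered the 1 kb count at its limit. This was the only peak shared by 2 members, and the 33 members had 34 distinct peaks between them.

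Among large subunit genes, MRPL38 had the strongest peak within 1 kb, 132.5 normalised tags (117 to 150), 252 bp before its start and 59.4-fold over the surrounding 10 kb. Its interval overlapped that of MRPS12. MRPL38 had 2 further peaks within 5 kb, of 33.1 and 15.6 normalised tags, both beyond its far end. MRPL17, a protein with a bacterial counterpart, followed with 73.1 (61.3 to 86.0). Next came MRPL42 with 56 (46.1 to 67.9), MRPL34 with 55.4 (45.2 to 66.7), MRPL54 with 47.9 (38.6 to 58.7) and MRPL39 with 47.6 (38.1 to 58.2). Their intervals overlapped each other, and those of MRPL42 and MRPL34 also overlapped that of MRPL17. The order is thus not a series of separate steps. MRPL39 had its other peak, 39.6 normalised tags (31.2 to 49.5), on the opposite side of its start, 579 bp before it.

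MRPL34, a gene with several annotated starts, also held a stronger peak of 78.9 normalised tags (67.0 to 92.8) 1.28 kb inside its far end. That peak was centred 92 bases before a start site in the promoter table. A distance to the outermost gene end can therefore differ from the distance to an annotated start inside the gene. MRPL44 and MRPL36 showed the same: each had a peak within 1 kb of a tabulated start, although the nearest outer gene end lay 2.76 kb and 1.02 kb from a peak. Counting only tabulated starts, 26 of 69 members had a peak within 1 kb (37.7%, 26.3 to 50.2), against 27.3% of all genes.

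MRPL4, which lines the exit tunnel, had 41.4 normalised tags (33.0 to 51.8) inside its far end and a stronger peak of 58.3 (48.0 to 70.2) 1.67 kb before its start. MRPL45, which anchors the ribosome to the inner membrane, had 40.9 (32.6 to 51.3), also inside the far end. MRPL20 had 36.4 (28.4 to 46.0) inside its far end, MRPL11, at the stalk base, 29.4 (22.0 to 37.9) before its start, and MRPL41 22.9 (16.6 to 30.7). These completed the 11 large subunit genes at or above the median score. The strongest peaks of the large subunit thus spanned 22.9 to 132.5 normalised tags.

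The other 10 large subunit genes had peaks of 7.81 to 17.4 normalised tags within 1 kb. MRPL58, which releases peptides from stalled ribosomes, had 17.4 (11.8 to 24.1) and MRPL55 had 14.3 (9.26 to 20.4). MRPL50 had 13.5, the shared MRPL46 peak 12.5, MRPL51 10.4, MRPL1, of the L1 stalk, 9.11, and MRPL2, near the peptidyl transferase centre, 8.85. MRPL21 had 8.59, MRPL40 8.07 and MRPL14 7.81. The MRPL40 peak was the nearest of all to a gene end, 18 bp inside the start, and the MRPL21 peak lay 5 bp from an end of IGHMBP2.

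**Figure D2:**
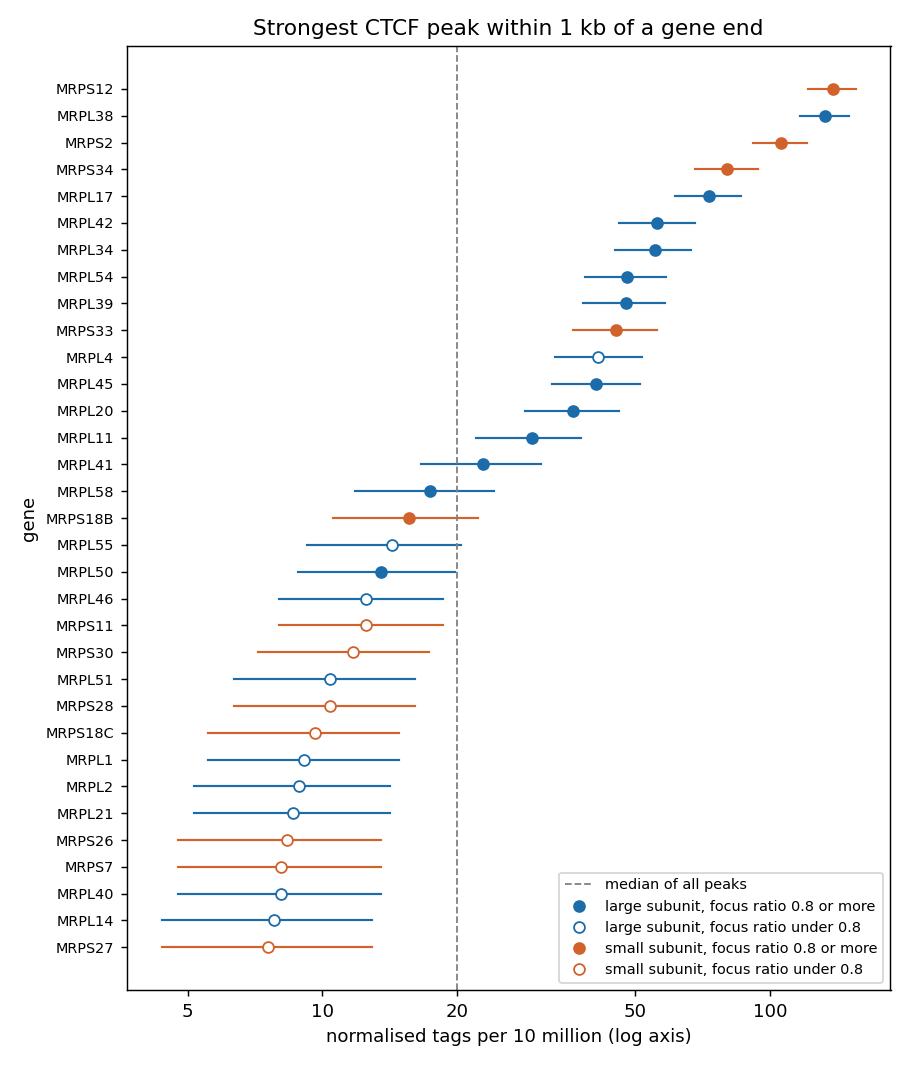
Normalised tags (horizontal axis, log scale) of the strongest peak within 1 kb of an end for each of the 33 members, with exact Poisson 95% intervals as bars, colour for the subunit and filled points for a focus ratio of 0.8 or more. The members run from 7.55 at MRPS27 to 138.2 at MRPS12, and open points are nearly all to the left of the median of all peaks (20).

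Strong and weak peaks also differed in shape. The focus ratio tells what fraction of a peak's tags lies on the side of its centre where their strand should put them, so a value near 1 describes a sharp summit. Of the 15 members whose strongest peak within 1 kb reached the median score, 14 had a focus ratio of at least 0.8, with a median of 0.867 and a range of 0.774 at MRPL4 to 0.937 at MRPS2. Of the other 18 members, 3 reached 0.8 (MRPL58, MRPS18B and MRPL50), the median was 0.696 and the lowest was 0.600 at MRPL40. Score and focus ratio come from the same tags, and few tags make a ratio less precise. This spread was that of gene ends in general: 15 of the 34 member peaks (44.1%) had a focus ratio under 0.8, against 44.5% of all 5150 autosomal peaks within 1 kb of a gene end and 26.3% of all autosomal peaks. The median member peak held 20.2 normalised tags within 1 kb, against 22.6 over all peaks so placed.

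**Figure D3:**
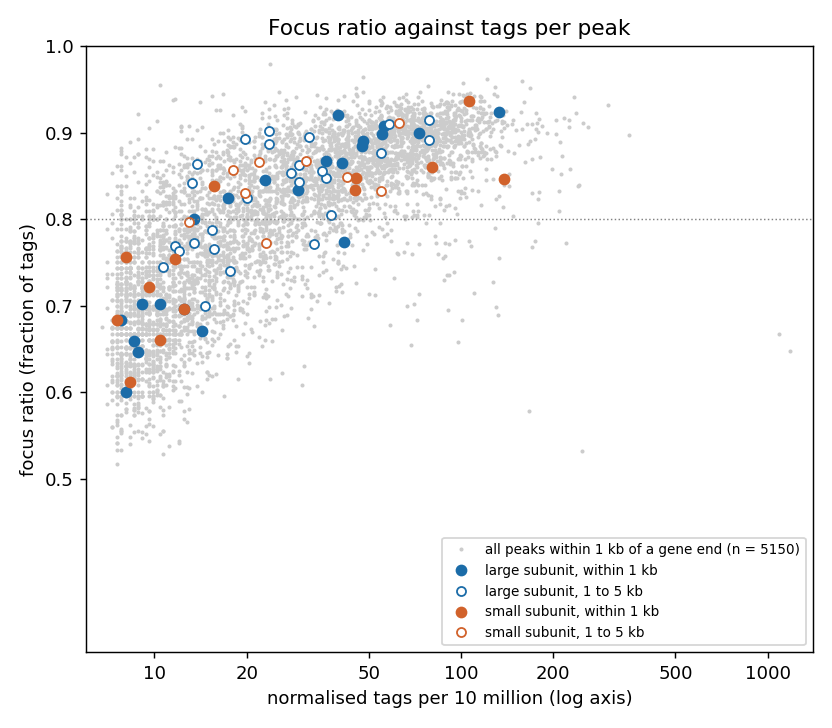
Focus ratio (vertical axis, fraction of tags) against normalised tags per peak (horizontal axis, log scale) for member peaks within 1 kb (filled) and from 1 to 5 kb (open), over all 5150 autosomal peaks within 1 kb of a gene end (grey). Member peaks within 1 kb run from 0.600 at MRPL40 to 0.937 at MRPS2 and lie within the grey cloud, and those with few tags are low in focus ratio.

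Measured from the outermost annotated ends, peaks within 1 kb lay mostly at the start of the gene, and those at 1 to 5 kb mostly at its far end. Strand was known for 69 members. Of 30 with a peak within 1 kb, the nearest one belonged to the start in 23 and to the far end in 7 (23.3%), against 18.8% at the far end over all genes. For 18 members with the nearest peak at 1 to 5 kb it belonged to the start in 5 and to the far end in 13 (72.2%), against 49.4% over all genes. MRPL36 is among these 13, although its peak lay within 1 kb of a tabulated start. The second peak of MRPL34 likewise counts as far-end but lies just before an inner start, so a far-end peak can be at an annotated start. Within 1 kb of the start 24 of 69 members had a peak (34.8%, 23.7 to 47.2), against 24.8% of all genes, and within 1 kb of the far end 7 (10.1%, 4.18 to 19.8), against 6.85%. Within 5 kb of the far end the members had 35 of 69 (50.7%, 38.4 to 63.0), against 28.4%. The members were short, with a median length of 8.62 kb against 24.5 kb over all genes, so a window of 5 kb around one end can reach the other. The part of gene length in this difference was not tested.

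**Figure D4:**
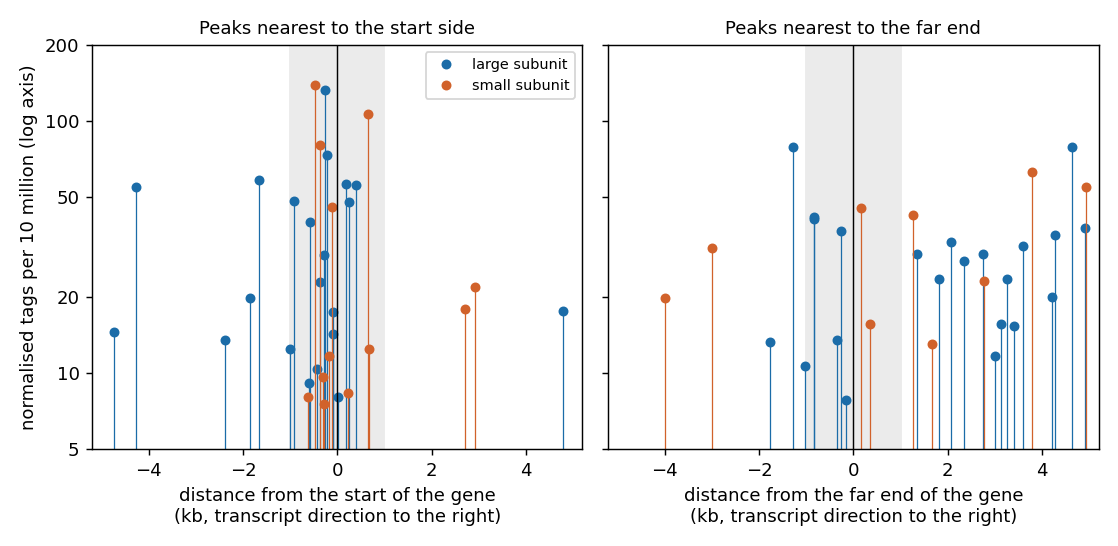
Normalised tags (vertical axis, log scale) of every peak within 5 kb of a member with known strand. Distance in kb is from the outermost annotated start (left) or far end (right), whichever is nearer, and inner start sites are not used. Transcription runs to the right and the 1 kb window is shaded. Start-side peaks gather within 1 kb, up to 138.2 normalised tags, while far-end peaks spread out to 5 kb beyond the gene.

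Of the members, 20 had their nearest peak between 1 and 5 kb, 15 from the large and 5 from the small subunit. These peaks held 10.7 to 78.9 normalised tags, with a median of 22.5. MRPL28 had the strongest, 78.9 (67.0 to 92.8) at 4.63 kb, then MRPL49 with 54.7 (44.7 to 66.2) at 4.26 kb and MRPS23 with 42.4 (33.5 to 52.4) at 1.27 kb. Of these 20 peaks, 4 lay within 1 kb of an end of another protein-coding gene: those of MRPL49, beside ZNHIT2, MRPL52, beside MMP14, MRPS16, beside DNAJC9, and MRPL10, beside OSBPL7. The rest of the group was MRPL15, MRPL16, MRPL22, MRPL24, MRPL27, MRPL30, MRPL32, MRPL36, MRPL44, MRPL53, MRPL57, MRPS10, MRPS18A and MRPS22. MRPS18A, which the gene table also names mL66, had 2 peaks in this range, of 23.2 and 62.7 normalised tags. MRPL22 had 3 peaks within 5 kb, as had MRPL38.

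The limits of the windows fell between close values. Just inside 1 kb were MRPL4 at 836 bp, MRPL54 at 917 bp and MRPL46 at 1000 bp, and just outside were MRPL36 at 1023 bp, MRPS23 at 1269 bp and MRPL52 at 1344 bp. At 5 kb the last inside were MRPL49 at 4265 bp, MRPL28 at 4635 bp and MRPL24 at 4742 bp, and the first outside MRPL12 at 5118 bp, MRPL19 at 6066 bp and MRPS31 at 6207 bp.

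No peak within 5 kb was called at 24 members, 13 of the large and 11 of the small subunit. From the large subunit these were MRPL3, MRPL9, MRPL12, MRPL13, MRPL18, MRPL19, MRPL23, MRPL33, MRPL35, MRPL37, MRPL43, MRPL47 and MRPL48. MRPL12 forms the stalk that recruits translation factors, and MRPL23 sits at the exit of the tunnel. From the small subunit they were MRPS5, MRPS6, MRPS9, MRPS14, MRPS15, MRPS17, MRPS21, MRPS24, MRPS25, MRPS31 and MRPS35. Their nearest peaks lay between 5.12 kb (MRPL12) and 31.1 kb (MRPL18) away. MRPS24 was 27.5 kb from its nearest peak, which held 159.0 normalised tags (141 to 178), the most among the nearest peaks of all 77 members. Weaker binding at these genes, under the caller's threshold, was not detectable here.

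Many members stood beside another gene. An end of another protein-coding gene lay within 1 kb of an end in 42 of 77 (54.5%), against 29.0% of all genes, in 28 of 49 large and 14 of 28 small subunit genes. Joined gene records that name the member itself, TPD52-MRPS28 and URGCP-MRPS24, both at 0 bp, were counted as other genes. Examples of separate genes are NDUFS6, a subunit of respiratory complex I, 27 bp from MRPL36, TWNK, the mitochondrial DNA helicase, 46 bp from MRPL43, and the proteasome gene PSMA2, 202 bp from MRPL32. Genes with another gene end within 1 kb had a peak within 1 kb more often: 36.8% of all of them, against 25.6% of those without. The members' values were higher, 19 of 42 (45.2%) and 14 of 35 (40%), but rest on few genes and have no interval here. Among genes in the members' length range, 0.677 to 112 kb, 28.5% had a peak within 1 kb. That range kept 16107 of 19126 genes and did not match the members' lengths within it, so this limit could change little. The parts of gene length and of close neighbours in the members' share were not tested. Of the nearest peaks within 1 kb, 9 of 33 were nearer to an end of another protein-coding gene than to the member. Counting only peaks with no other gene end nearer took the members from 33 to 24 of 77 (31.2%, 21.1 to 42.7). The same rule took all genes from 5521 to 4901 of 19126 (25.6%), a share inside the members' interval.

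Pseudogenes with MRPL or MRPS symbols, copies of these genes that are mostly processed transcripts inserted elsewhere, seldom had a peak. Of 99 on the autosomes, 4 had one within 1 kb of an end (4.04%, 1.11 to 10.02), against 4.97% of all 15727 autosomal pseudogenes. Within 5 kb 18 had one (18.2%), against 17.3%. The 4 were MRPS24P1 with 30.2 normalised tags (22.9 to 39.0), MRPS25P1 with 26.8 (19.8 to 34.9), MRPL35P2 with 15.9 (11 to 22.9) and MRPS31P5 with 9.63 (5.55 to 14.8). The genes MRPS24, MRPS25, MRPL35 and MRPS31 themselves had no peak within 5 kb, a coincidence noticed after the values were seen and not tested.

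By chromosome, the members with a peak within 1 kb were unevenly spread. All 4 members on chromosome 19 (MRPL4, MRPL34, MRPL54 and MRPS12) and all 3 on chromosome 9 (MRPS2, MRPL41 and MRPL50) had one, where 25.6% and 31.4% of all genes there did. None of the 8 on chromosome 2 (0%, 0 to 36.9) or the 4 on chromosome 3 (0%, 0 to 60.2) had one, where 31.0% and 30.8% of all genes did. Chromosome 17, also with 8 members, had 4. These chromosomes were picked out for their counts, and each holds too few members for its share to be precise.

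Uniform ribosomal protein names in the gene table mark a protein as mitochondrial (m) or as universal or bacterial (u or b), and genes were grouped by them after the data were seen. The m names include those of MRPS18A and MRPS18B, which are paralogues of a bacterial protein. Genes with m names had a peak within 1 kb in 17 of 31 (54.8%, 36 to 72.7) and those with u or b names in 15 of 44 (34.1%, 20.5 to 49.9). The order was the same in the large subunit, 11 of 19 against 10 of 30, and in the small, 6 of 12 against 5 of 14. Within 5 kb the shares were 80.6% (62.5 to 92.6) and 61.4% (45.5 to 75.6). The intervals overlapped at both windows, and MRPS24 and MRPS28 had no uniform name. Splitting by the number in the symbol, up to 36 for MRPL and 21 for MRPS, gave 15 of 44 for low and 18 of 33 (54.5%) for high numbers. That split puts nearly the same genes together as the names do, so it is not separate support.

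Among other genes of mitochondrial translation, translation factors had a peak within 1 kb in 6 of 14 (42.9%, 17.7 to 71.1) and assembly and ribosomal RNA factors in 12 of 28 (42.9%, 24.5 to 62.8). Mitochondrial tRNA synthetases with their amidotransferase partners had one in 10 of 22 (45.5%, 24.4 to 67.8). Each interval included both the share of members and the 28.9% of all genes. In 16 of these 28 genes with a peak the nearest one was under the median of all peaks, as in MRRF, the ribosome recycling factor, with 7.81 normalised tags, and MTIF3, an initiation factor, with 8.07. Others were above it. GFM1, the elongation factor that moves the ribosome along, had 157.5 normalised tags (140 to 177) at 97 bp, and TUFM, which brings in the tRNA, 54.1 (44.2 to 65.6) at 189 bp. TFAM, which packages mitochondrial DNA, had 61.4 (50.8 to 73.6), and NSUN4, an RNA methyltransferase of the small subunit, 73.4 (61.8 to 86.6). AARS2, the alanyl-tRNA synthetase, had 90.3 (77.1 to 105) at 43 bp. In contrast, none of the 5 ribosomal protein genes outside the MRP symbols, DAP3, PTCD3, CHCHD1, AURKAIP1 and GADD45GIP1, had a peak within 1 kb (0%, 0 to 52.2), and only AURKAIP1 had one within 5 kb, of 79.9 normalised tags at 1500 bp. With 5 genes the interval included the members' share.

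Other large protein complexes were similar within 1 kb: cytosolic ribosomal proteins had 30 of 75 (40%, 28.8 to 52.0), nuclear respiratory chain genes 31 of 78 (39.7%, 28.8 to 51.5) and proteasome genes 16 of 38 (42.1%, 26.3 to 59.2). Within 5 kb they had 68.0%, 60.3% and 55.3%, against 68.8% of the mitochondrial ribosomal protein genes. All these intervals overlapped that of the members, and the differences between lists were not tested. Within 1 kb each also included the 28.87% of all genes, narrowly for cytosolic ribosomal (from 28.85) and respiratory chain genes (from 28.83). Within 5 kb only the cytosolic ribosomal interval, 56.2 to 78.3, lay above the 54.0% of all genes.

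**Figure D5:**
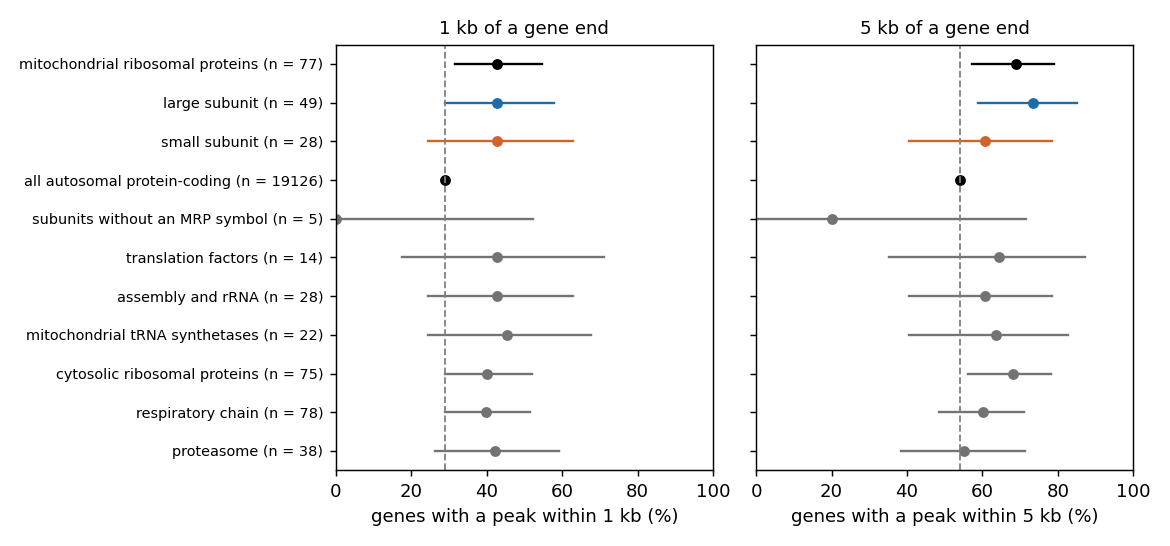
Share of genes with a peak within 1 kb (left) and 5 kb (right) of an end, in percent, with Clopper-Pearson 95% intervals, for the members, each subunit, all autosomal protein-coding genes (dashed line) and 7 lists of related genes. The members stand at 42.9% and 68.8%, beside 40% and 68.0% for cytosolic ribosomal proteins, and the dashed lines at 28.9% and 54.0%.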

How the data were processed

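Bowtie2 and HOMER, in versions not given here, and the build hg38 stand in the submitters' processing notes. Per the file headers, peaks were called on this library alone with findPeaks in factor style and no control library is named: fragment length 164 bp, at most 1 tag per position, false discovery rate 0.001 (15 tags), at least 4-fold over the local 10 kb and a local Poisson p of 1e-04. The signal that the authors deposited is tags in a peak, scaled to a library of 10000000. Their deposited focus ratio is a fraction, and the deposited score is the caller's own. The deposited fold, a ratio, compares tag density with the local region, and the deposited p-value tested nothing here. Depth was 19210460 tags.

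Gene ends and uniform names came from a RefSeq table (GRCh38.p14, the chromosomes of hg38), and strand, start sites and promoters from a second one that matched 69 of 77 members. Shares, distances and motif matches were computed with Python 3.11.15, numpy 2.4.6, pandas 2.3.3 and scipy 1.17.1, and figures with matplotlib 3.10.9. Distances and motif matches were tested on simulated data. Tags were rounded to whole numbers for the Poisson intervals. Every member is named. Tags are given for each member with a peak within 1 kb, and intervals, distances or sides in the text for only some of them. Although the rule for members uses no binding value, the members and lists were chosen with earlier results of these data known. Alternatives varied score, fold, focus ratio, window, peak edge, start site, peak ownership, subunit and background.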

Additional observations from a re-analysis of the deposited data

How the results depend on the processing

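No paired analysis was possible because only 1 of the 4 samples was analysed, and for the same reason no replicate could be left out. Of 93 alternative values, 54 stayed within the 95% interval of the reported value and 39 lay outside it. The count of changed called directions was 0 and could only be 0, since the intervals of both main differences included 0. The difference between the subunits stayed within its interval throughout, from -3.06 to 10.7 points at 1 kb and from -5.61 (a window of 10 kb) to 16.8 (subunits by known structure) at 5 kb. Its sign at 5 kb, with 12.8 points in the main setting, thus changed with the 10 kb window. Merging peaks within 500 bp removed 0 peaks and could remove none, since the caller kept peaks at least 698 bp apart. The values of that alternative are counted among the 54 but could not change, so they are no check.

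Shares that moved are given within 1 kb, then 5 kb. Peaks at or above the median score: members 19.5% and 40.3%, large subunit 22.4% and 44.9%, small 14.3% and 32.1%, all genes 15.6% and 34.2%. At least 8-fold: members 24.7% and 49.4%, large 28.6% and 53.1%, small 17.9% (1 kb), all genes 18.9% and 42.2%. Focus ratio of at least 0.8, an alternative chosen after seeing the data: members 22.1% and 46.8%, large 24.5% and 51.0%, small 17.9% and 39.3%, all genes 16.1% and 38.6%. No other gene end nearer: members 31.2% and 50.6%, large 55.1% (5 kb), all genes 25.6% and 45.4%. Start site only: members 47.8% (5 kb), large 52.4% (5 kb), all genes 27.3% and 43.6%. Nearest peak edge: all genes 30.8% and 54.8%. All genes moved to 20.9% with 500 bp and 37.9% with 2 kb. With 10 kb in place of 5 kb, members stood at 85.7%, small at 89.3% and all genes at 68.4%. The members' value was above that of all genes under each of these, but with the median score, 8-fold, focus ratio, no nearer gene end or start site only their interval included the share of all genes at both windows.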
